A study of Homo sapiens with 12 samples.

Results

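The cytosolic ribosomal protein genes were followed through 12 RNA-seq libraries of HaCaT cells, an immortalized human keratinocyte line. Members were the protein-coding rows named RPL or RPS followed by a digit, without the RPS6K kinases, together with RPLP0, RPLP1, RPLP2 and RPSA. The rule took in 91 of the 58735 gene rows, of which 55 carry large-subunit names (RPL or RPLP) and 36 carry small-subunit names (RPS or RPSA). Of these, 77 are canonical subunit genes. The other 14 rows are paralogs or look-alikes: RPL3L, RPL7L1, RPL10L, RPL22L1, RPL26L1, RPL36AL, RPL39L, RPS27L, RPS4Y1, RPS4Y2, the binding-protein gene RPS19BP1, and 3 read-through rows (RPL36A-HNRNPH2, RPL17-C18orf32 and RPS10-NUDT3).

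The 4 groups of 3 libraries were HaCaT cells given a control siRNA (Control-siRNA), the same with a stimulus labelled Mix for 24 h (Control-siRNA+Mix), cells given an siRNA against PHGDH, the enzyme that opens serine synthesis from a glycolytic intermediate (PHGDH-siRNA), and the latter with Mix for 24 h (PHGDH-siRNA+Mix). All groups shared the cell line and a transfection. The labels used here give neither the contents of Mix nor the siRNA sequences, and they do not say whether replicates were separate cultures, so p-values measure the spread between these libraries, which may be technical. Knockdown was partial: PHGDH stood at 36.5, 56.2 and 45.8 FPKM (reads scaled by gene length and library size) in Control-siRNA and 23.7, 20.1 and 16.9 FPKM in PHGDH-siRNA. With Mix it stood at 31.9, 31.2 and 26.6 FPKM against 19.1, 13.3 and 11.5 FPKM.

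The cytosolic ribosome is built from a small subunit, which reads the mRNA, and a large subunit, which joins amino acids. Each subunit is a shell of ribosomal proteins on ribosomal RNA, and most of these proteins are made from single, very abundant mRNAs. Many of those mRNAs begin with a 5′ terminal oligopyrimidine (TOP) run, an unbroken stretch of C and T that starts at a C, through which the TOR kinase and the RNA-binding protein LARP1 control their translation. In keratinocytes, as in other dividing cells, ribosomal protein mRNAs are among the most abundant messages.

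The starts of 10 members that the results return to are shown first, because the TOP run is the sequence feature most members shared. Each line gives 30 bases before and 20 bases from the RefSeq transcript start in the sense direction (GRCh38.p14), with the pyrimidine run in capitals where one was found.
RPLP0: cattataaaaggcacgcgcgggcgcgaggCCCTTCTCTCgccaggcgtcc
RPSA: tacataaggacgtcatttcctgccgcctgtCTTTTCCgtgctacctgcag
RPL39: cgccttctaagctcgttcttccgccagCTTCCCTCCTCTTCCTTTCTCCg
RPL22: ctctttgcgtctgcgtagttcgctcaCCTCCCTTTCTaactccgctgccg
RPL22L1: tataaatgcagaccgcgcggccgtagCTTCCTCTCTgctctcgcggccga
RPS12: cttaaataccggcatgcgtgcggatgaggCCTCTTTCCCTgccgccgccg
RPS13: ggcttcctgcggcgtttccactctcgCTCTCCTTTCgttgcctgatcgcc
RPS25: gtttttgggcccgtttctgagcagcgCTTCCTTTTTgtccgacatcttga
RPS26: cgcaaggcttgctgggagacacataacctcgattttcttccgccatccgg
RPS27L: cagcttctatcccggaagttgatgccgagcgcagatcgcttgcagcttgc

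The RPL39 window lies at chrX:119791611-119791660 on the minus strand, the RPL22 window at chr1:6199576-6199625 (minus) and the RPL22L1 window at chr3:170870176-170870225 (minus). The RPSA window lies at chr3:39406690-39406739 (plus), RPLP0 at chr12:120201092-120201141 (minus), RPS12 at chr6:132814539-132814588 (plus), RPS13 at chr11:17077648-17077697 (minus), RPS25 at chr11:119018324-119018373 (minus) and RPS27L at chr15:63157458-63157507 (minus). The RPS26 window, which like that of RPS27L held no such run, lies at chr12:56041888-56041937 (plus). A run was counted where a C within 5 bases of the start was followed by at least 4 more pyrimidines on the sense strand. By that count 54 of the 72 members with a RefSeq promoter held a run (75.0%), against 5749 of 27305 promoters of all genes (21.1%). The 72 include RPL10L, RPS4Y1 and RPS4Y2, which were under the expression filter given below. They also include RPL36A-HNRNPH2 and RPL17-C18orf32, whose windows are the same as those of RPL36A (with a run) and RPL17 (without). RPL39 carried the longest of those shown, 22 bases.

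Other promoter letters were searched in 250 bases before to 50 after the same starts. The ETS-type sequence CCGGAAGT (either strand) was present in 11 of 72 member promoters (15.3%) and in 4.44% of all promoters. The YY1-type sequence AAGATGGC (either strand) was present in 7 members (9.72%) and in 3.03% of all promoters. TATAAA on the sense strand was found in 5.56% of member promoters and 7.71% of all, and CACGTG (either strand) in 5.56% and 7.43%. These matches describe letters and are not evidence of binding.

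Every library expressed all 8 keratinocyte markers checked, with KRT14 between 527 and 2990 FPKM, and PTPRC, TYR and KDR were at 0 in all 12. Reads rebuilt from the values ranged from 16403845 to 20901128 per library. In each PHGDH siRNA group the library numbered 2 stood apart from the other pair. Mitochondrial rRNA took 0.74% (without Mix) and 0.708% (with Mix) of the reads in these libraries against 0.249% to 0.358% elsewhere. Their summed keratinocyte markers reached 6942 and 8535 FPKM against 2613 and 2406, and 5742 and 5079, in the other libraries of the same groups. Control-siRNA replicate 1 differed in other measures, with the highest mitochondrial share of reads (7.08%), the lowest mean GC of reads (50.1%) and the lowest keratinocyte sum (1834 FPKM). Results below are given with and without these libraries.

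Members made up between 7.3% and 11.6% of summed FPKM. The shares were 8.27%, 11.6% and 11% in Control-siRNA, 9.44%, 9.28% and 8.95% in Control-siRNA+Mix, 11%, 9.06% and 10.6% in PHGDH-siRNA, and 9.78%, 7.3% and 9.32% in PHGDH-siRNA+Mix. The 3 libraries that stood apart were each the lowest of their group, and all pairs of groups compared overlapped. Same-numbered libraries of the 2 PHGDH siRNA groups deviated together over all genes (r = 0.69, 0.775 and 0.459 for replicates 1, 2 and 3), and within these pairs the share was lower with Mix each time, by 1.41 percentage points ± 0.309 (SD, n = 3 pairs). The exact two-sided sign-flip permutation test gave p = 0.25, the smallest that 3 pairs allow. Without Control-siRNA replicate 1, the Control-siRNA shares lay above those of Control-siRNA+Mix, a direction that leaving out the lowest library favours. Group means were 10.3% ± 1.77, 9.22% ± 0.25, 10.2% ± 1.01 and 8.8% ± 1.32 (SD, n = 3). These are bulk samples, in which fewer cells of a kind and less RNA per cell cannot be told apart.

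Levels spanned more than 3 orders of magnitude on the FPKM scale, which is per length. RPL8 and RPL41, both large-subunit proteins, led with means over 12 libraries of 1850 and 1610 FPKM, followed by RPL7A, RPS2 and RPL35. RPL8 ranged from 929 to 2640 FPKM and RPL41 from 970 to 2340 FPKM, so their order does not exceed their spread. Among the lowest tested members were RPL3L, RPS10, RPL36A and RPS27L, with RPL3L between 0.137 and 1.2 FPKM and RPS27L between 1.57 and 3.14 FPKM. In all, 66 members averaged 100 FPKM or more. The 6 members under the filter of a 0.5 FPKM mean in at least 1 group were the 3 read-through rows, RPL10L, RPS4Y1 and RPS4Y2, which left 85 tested members.

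Some canonical members share sequence with other rows, at low and at high levels. RPS10 (mean 0.783 FPKM) shares 39.4% of its exonic length with RPS10-NUDT3, and RPL17 (10.1 FPKM) shares 35.3% with its read-through and neighbours. RPL10, which averaged 429 FPKM, shares 55.5%, mostly with the opposite-strand gene DNASE1L1. The table holds 1144 pseudogene rows named after members, and 77 members have at least 1. RPS28P7 averaged 2860 FPKM (10986 rebuilt reads) against 114 FPKM (4413 reads) for RPS28. RPL39P3 averaged 487 FPKM over 156 bases against 285 FPKM over 2141 bases for RPL39, but 1394 rebuilt reads against 11202. How reads were divided between such copies is not given in the sources used here, so the levels of these members are uncertain. RPL39L, RPL22L1, RPL3L, RPL36AL and RPS27L overlap no other gene row in exonic position and have no pseudogene row named after them. Their sequences were not compared with those of their partners or the partners' pseudogenes, so shared reads remain possible there too.

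**Figure D1:**
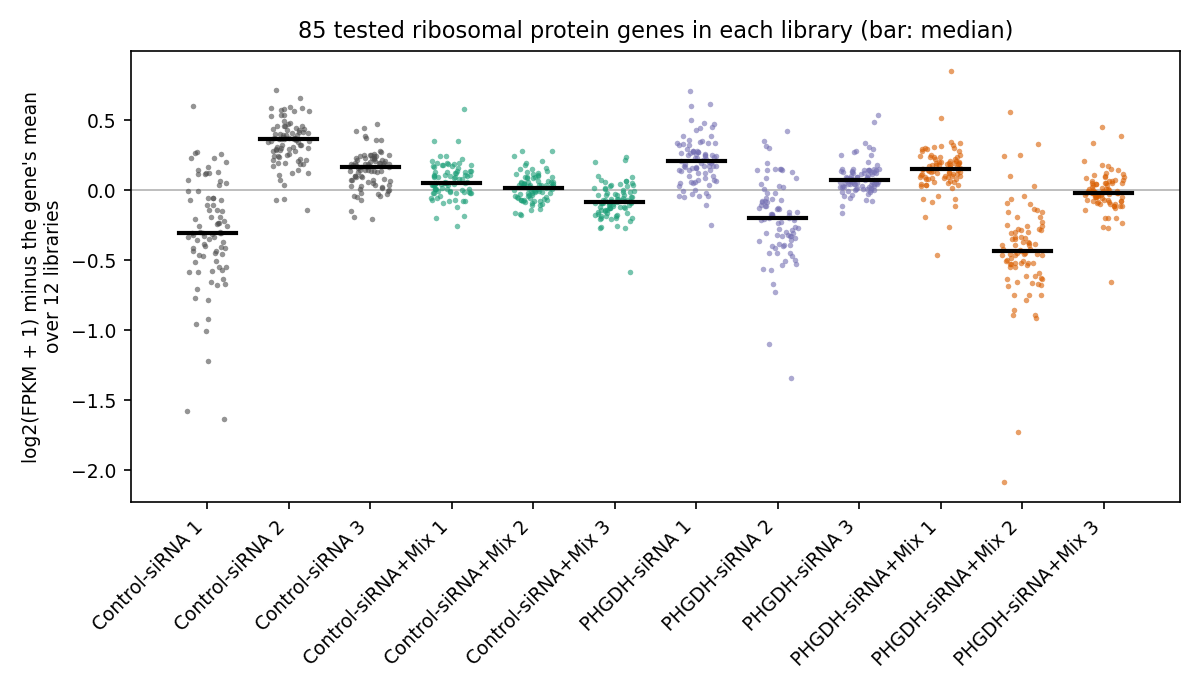
Each point is 1 of the 85 tested ribosomal protein genes, plotted as log2(FPKM + 1) minus that gene's mean over 12 libraries; black bars are medians. Control-siRNA 1, PHGDH-siRNA 2 and PHGDH-siRNA+Mix 2 sit lowest.

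Most members were lowest together in replicate 2 of both PHGDH siRNA groups, and a few were highest there. Each library was set against the mean of the other 2 libraries of its group on the log2(FPKM + 1) scale, as a description with no test, since the libraries were singled out for their values. The median over 85 members was -0.36 in PHGDH-siRNA replicate 2, where 73 were lower, and -0.50 in PHGDH-siRNA+Mix replicate 2, where 79 were lower. Over all 14577 genes tested the medians were 0.00 and -0.01. Members below both other libraries in both groups numbered 69 of 85 (81.2%), against 33.7% of all genes, and 5 members (5.88%) were above both in both groups, against 32.5%. Large-subunit members had medians of -0.38 and -0.52 and small-subunit members -0.35 and -0.48 in those 2 libraries.

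RPL22L1, a paralog of RPL22 in the large subunit, stood lowest of all members in these libraries. It read 88.8, 20.7 and 79 FPKM in PHGDH-siRNA and 98.1, 12 and 74.1 FPKM in PHGDH-siRNA+Mix, which made replicate 2 4.06-fold and 7.15-fold lower than the mean of the other 2. In the 6 libraries with control siRNA it stayed between 55.1 and 64.2 FPKM. Replicates 1 and 3 of both PHGDH siRNA groups thus lay above every control-siRNA library and replicate 2 below every one.

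RPL22 itself, an RNA-binding protein of the large subunit, went the other way. It read 23.7, 34.5 and 24.1 FPKM in PHGDH-siRNA and 22.2, 30.5 and 21.5 FPKM in PHGDH-siRNA+Mix, so that replicate 2 was 1.45-fold and 1.39-fold higher. RPL22L1 amounted to 375%, 60% and 328% of RPL22 in PHGDH-siRNA and to 442%, 39.3% and 345% in PHGDH-siRNA+Mix. In the control-siRNA libraries this ratio ran from 191% to 312%, and RPL22 exceeded RPL22L1 in the 2 replicate 2 libraries and in no other.

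RPS26, a small-subunit protein at the mRNA exit channel, was the next lowest. It read 296, 105 and 280 FPKM in PHGDH-siRNA and 241, 67.6 and 233 FPKM in PHGDH-siRNA+Mix, 2.75-fold and 3.5-fold lower in replicate 2. RPL35 and RPL8 of the large subunit and RPS13 of the small subunit completed the 5 lowest. RPS13 read 321, 170 and 314 FPKM in PHGDH-siRNA and 326, 152 and 300 FPKM in PHGDH-siRNA+Mix. RPL35 was 2.07-fold and 2.11-fold lower in replicate 2, and RPL8 1.96-fold and 2.13-fold lower.

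The 5 members highest in both replicate 2 libraries were RPL22, RPL36AL, RPS12, RPS27L and RPS25. RPS12, a small-subunit protein of the head domain, read 796, 991 and 763 FPKM in PHGDH-siRNA and 858, 943 and 757 FPKM in PHGDH-siRNA+Mix. RPS25, which many viral internal ribosome entry sites require, read 384, 466 and 374 FPKM, then 377, 392 and 363 FPKM. RPL36AL read 91.9, 125 and 101 FPKM, then 117, 161 and 143 FPKM. In each case replicate 2 was the highest of its 3 libraries, by 1.06-fold to 1.3-fold over the mean of the others for these 3 genes. RPS6, the S6 kinase substrate, was highest in replicate 2 of PHGDH-siRNA (360, 418 and 345 FPKM) but not of PHGDH-siRNA+Mix (354, 330 and 322 FPKM).

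Across the 85 members the replicate 2 differences of the 2 groups had a Pearson r of 0.915 (Spearman rho 0.854), against 0.774 (0.786) across 14486 other genes. These are descriptions across genes that share the same libraries. Within members the difference had an r of -0.157 with GC content and of 0.07 with log2 gene length in PHGDH-siRNA replicate 2. The 52 tested members with a TOP run had medians of -0.32 and -0.50 in the 2 replicate 2 libraries and the 15 without had -0.41 and -0.49. Only 1 RefSeq start per gene was read, so a run at another start of these 15 would be missed. In Control-siRNA replicate 1 the order was opposite to that of PHGDH-siRNA replicate 2, with -0.55 with a run and -0.32 without. RPS12 and RPS25 were among the members highest in the 2 replicate 2 libraries, and RPS13 and RPL22L1 among those lowest in them. All of these carry a run, as the printed starts show.

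**Figure D2:**
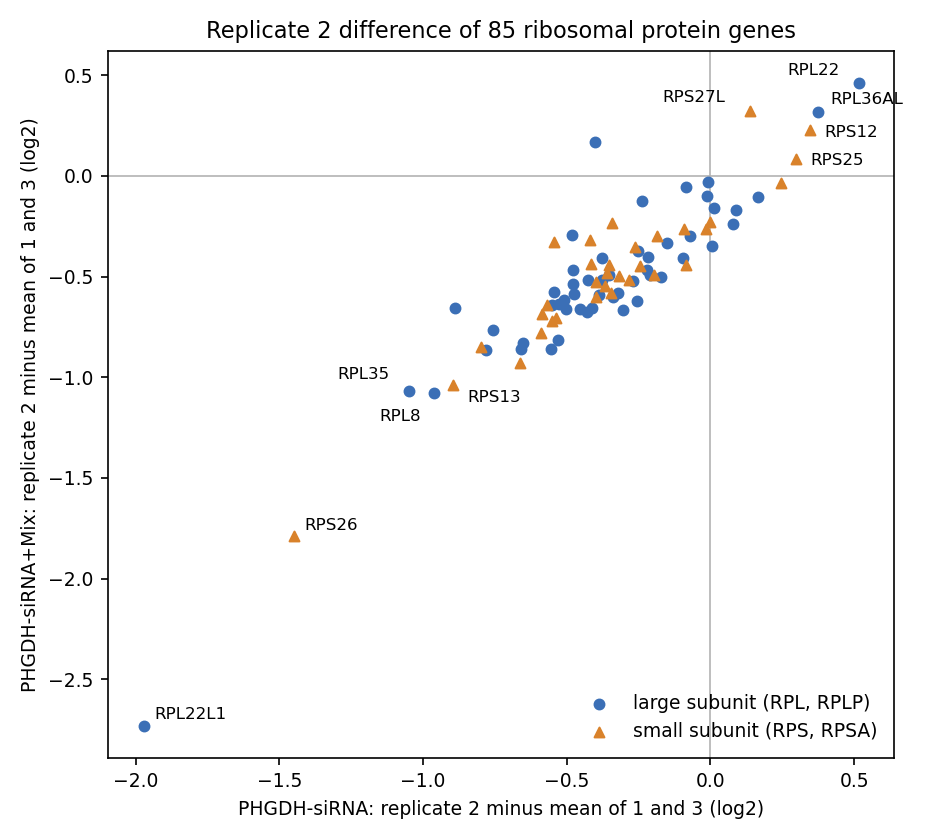
Each point is 1 tested member; the axes give log2(FPKM + 1) of replicate 2 minus the mean of replicates 1 and 3 in PHGDH-siRNA (x) and PHGDH-siRNA+Mix (y). RPL22L1 and RPS26 lie farthest down on both axes and RPL22 highest.

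Control-siRNA replicate 1 was also low in most members, in another order. The median was -0.53, 79 of 85 were lower, and 76 (89.4%) lay below both other Control-siRNA libraries, against 43.5% of all genes, while 2 (2.35%) lay above both, against 40% of all genes. RPL8 read 929, 2640 and 2250 FPKM in Control-siRNA, RPL36 105, 357 and 284 FPKM, and RPL36AL 36, 115 and 94.8 FPKM. RPL26, a large-subunit protein near the exit tunnel, read 6.8, 34.7 and 20.2 FPKM, 4.04-fold lower in replicate 1. RPL22L1 (62.4, 62.8 and 55.1 FPKM) and RPS26 (343, 356 and 314 FPKM) were not low there.

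Across the 85 members, the Control-siRNA replicate 1 difference had an r of 0.01 with that of PHGDH-siRNA replicate 2 and of -0.14 with that of PHGDH-siRNA+Mix replicate 2, against 0.285 and 0.277 across other genes. It fell with GC content: the median was -0.39 in the third of members with the lowest GC (37.4% to 45.2%) and -0.66 in the third with the highest (51.3% to 63.7%). The r with GC was -0.315 over members and -0.574 over other genes. Members low in all 3 libraries numbered 60 (70.6%), against 20.7% of all genes.

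Genes outside the name rule gave a scale for these shifts. The 356 other genes at 100 FPKM or more had medians of -0.31 in PHGDH-siRNA replicate 2, -0.33 in PHGDH-siRNA+Mix replicate 2 and -0.32 in Control-siRNA replicate 1. The 78 mitochondrial ribosomal protein genes, whose products serve the separate ribosome of the mitochondrion, had medians of -0.41, -0.46 and -0.32. The 70 tested ribosome biogenesis factors had -0.37 and -0.49 in the replicate 2 libraries but -0.05 in Control-siRNA replicate 1. The 15 snoRNA host genes, which carry guides for rRNA modification in their introns, had -0.45, -0.83 and -0.31. Other translation genes shifted less: the 17 elongation factors and other TOP mRNAs had -0.12, -0.34 and -0.04, the 35 initiation factors -0.20, -0.22 and -0.10, and the 25 TOR pathway genes -0.05, -0.11 and -0.05. Low values in these libraries thus extended to some lists and to other abundant genes but not evenly to the translation programme, and the part of mitochondrial rRNA, keratinocyte markers and GC in them was not tested.

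**Figure D3:**
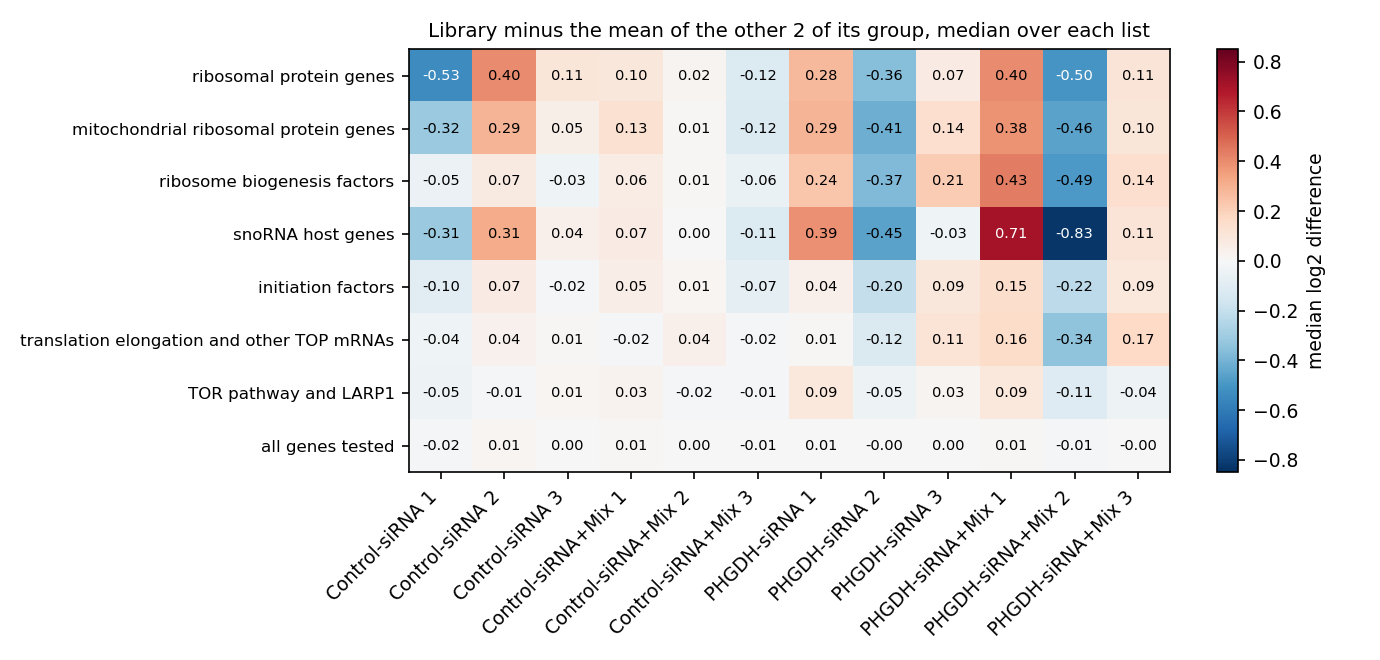
Cells give the median log2 difference of each library (columns) from the mean of the other 2 libraries of its group, over the genes of each list (rows). Ribosomal protein genes reach -0.53, -0.36 and -0.50 in Control-siRNA 1, PHGDH-siRNA 2 and PHGDH-siRNA+Mix 2, while all genes stay near 0.

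Most members moved together across the 12 libraries. The correlation of a member's log2(FPKM + 1) with the mean of the other members exceeded 0.9 for 35 of 85 and 0.5 for 73. It was below 0 for 3: RPS27L (-0.305), RPL36A (-0.0529) and RPS12 (-0.0435). Among genes that are not members, HMGA1, a chromatin architecture protein, followed the members' mean most closely (r = 0.98 over 12 libraries). Next came HSD17B10 (0.977), COX7C (0.975), DAZAP1 (0.973), COX14 (0.972), AC116533.1 (0.971), RNF167 (0.97), PSMD4 (0.969), TOP1MT (0.969) and PPP1R14B (0.966). All these points share depth and library composition.

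PHGDH knockdown without Mix changed no member past the test. By limma with Benjamini-Hochberg adjustment over 14577 genes, 0 of 85 members had an adjusted p under 0.05, against 0.0412% of all genes, and 1 member had an unadjusted p under 0.05. The median log2 fold change was -0.02 (53 of 85 below 0), against 0.01 over all genes. The sign of this median depended on which libraries were included: it was 0.09 with 62 members above 0 without replicate 2 of both PHGDH siRNA groups, and -0.22 with 79 below 0 without Control-siRNA replicate 1. Without all 3 libraries it was -0.11, with 78 below 0, and 0 members were called by limma in each of these fits, as were 0.696% of all genes without the 2 replicate 2 libraries and 1.16% without all 3.

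The member nearest the threshold was RPL3L, a paralog of RPL3 known from skeletal muscle and heart, at levels near the detection filter. It read 0.784, 1.2 and 0.998 FPKM in Control-siRNA and 0.526, 0.208 and 0.331 FPKM in PHGDH-siRNA. The groups did not overlap, and the log2 fold change was -0.56 (SE 0.131, limma adjusted p = 0.277). RPS27L, a p53-inducible paralog of RPS27, read 1.57, 2.16 and 1.98 FPKM against 2.24, 2.65 and 2.4 FPKM, also without overlap (0.24, SE 0.13, limma adjusted p = 0.862). RPSA followed by p (-0.27, SE 0.158, limma adjusted p = 0.915), with overlapping groups. In all, 1 member lay wholly higher and 3 wholly lower, or 1.18% and 3.53%, against 4.89% and 5.3% of all genes.

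PHGDH knockdown under Mix likewise called no member. The count by limma was 0 of 85, with 1 at an unadjusted p under 0.05, and 0.0206% of all genes were called. The median was -0.09 (70 of 85 below 0), against 0.00 for all genes, and it turned to 0.07 with 70 above 0 when replicate 2 of both PHGDH siRNA groups was left out. No member was called by limma in that fit (0.379% of all genes) or without Control-siRNA replicate 1 as well (1.73% of all genes). Members wholly higher numbered 1 (RPS25) and wholly lower 2, or 1.18% and 2.35%, against 7.01% and 7.33% of all genes. RPL3L again had the lowest p, at 0.541, 0.592 and 0.457 FPKM in Control-siRNA+Mix and 0.243, 0.137 and 0.235 FPKM in PHGDH-siRNA+Mix (-0.35, SE 0.131, limma adjusted p = 0.783). RPL26L1, a paralog of RPL26, read 39.2, 36.3 and 36 FPKM against 32.3, 21.2 and 31.9 FPKM without overlap (-0.40, SE 0.21, limma adjusted p = 0.952). RPS26 differed by -0.61 (SE 0.478, limma adjusted p = 0.979), which became -0.01 without the 2 replicate 2 libraries.

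In the main fit (all 12 libraries, FPKM as deposited, no replicate block), Mix lowered 1 member past the test in both siRNA backgrounds, RPL39L. RPL39L is the autosomal paralog of X-linked RPL39, a very small protein of the peptide exit tunnel, and is best known from testis and some tumour lines. The gene lies at chr3:187120948-187180908 (hg38, minus strand). It read 42.9, 65.1 and 53.7 FPKM in Control-siRNA and 32.8, 34.7 and 25.8 FPKM in Control-siRNA+Mix. In the PHGDH background it read 60.2, 43.5 and 55.3 FPKM without Mix and 28.2, 29.8 and 24.6 FPKM with Mix. Every Mix library lay below every library without Mix, including the 3 that stood apart.

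The log2 fold change of RPL39L was -0.77 (SE 0.183, limma adjusted p = 0.0238) with control siRNA and -0.91 (SE 0.183, limma adjusted p = 0.0114) with PHGDH siRNA. The call with control siRNA was lost on leaving out Control-siRNA replicate 2 (limma adjusted p = 0.0891) or 3 (0.0847), or Control-siRNA+Mix replicate 1 (0.0651) or 3 (0.113). With a replicate block in the PHGDH siRNA groups the adjusted p there was 0.00656. The call with PHGDH siRNA was lost on leaving out PHGDH-siRNA replicate 3 (0.0502) or PHGDH-siRNA+Mix replicate 3 (0.0511). The fold change itself ranged from -0.92 to -0.62 and from -1.04 to -0.82 over these fits.

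RPL39, the canonical partner, did not follow. It read 188, 335 and 284 FPKM in Control-siRNA, 315, 310 and 284 FPKM in Control-siRNA+Mix, 292, 241 and 282 FPKM in PHGDH-siRNA, and 324, 247 and 317 FPKM in PHGDH-siRNA+Mix, with the groups overlapping. RPL39L amounted to 20.4% ± 2.12 of RPL39 in Control-siRNA and 10.2% ± 1.07 with Mix (SD, n = 3), and to 19.4% ± 1.29 and 9.51% ± 2.26 in the PHGDH background. These ratios did not overlap with and without Mix in either background. The exact two-sided permutation test gave p = 0.1 in each, the smallest that 3 against 3 allows (adjusted p = 0.311 over 28 such ratio tests of 7 paralog pairs, which were chosen after values were seen). Knockdown groups overlapped in this ratio (exact permutation p = 0.7 both without and with Mix).

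**Figure D4:**
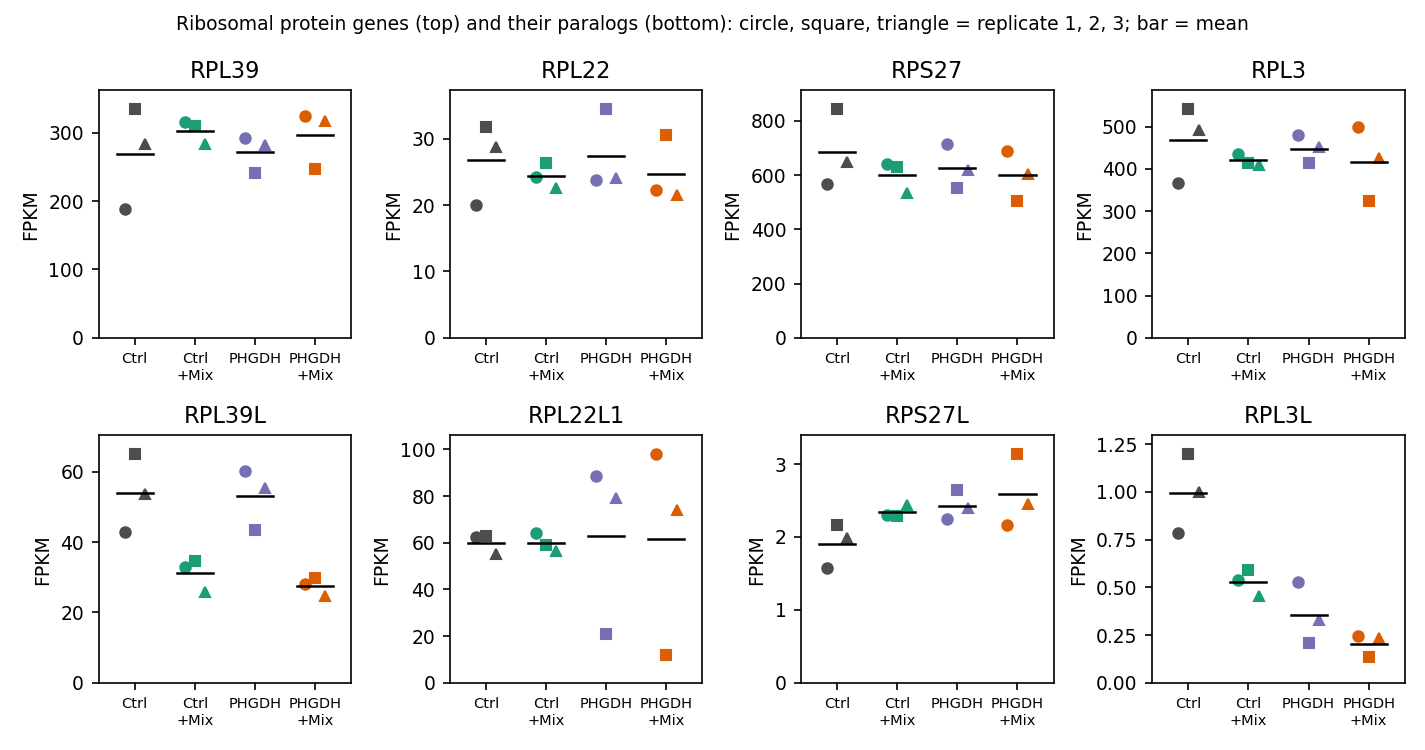
FPKM per library of 4 ribosomal protein genes (top) and their paralogs (bottom); circles, squares and triangles are replicates 1, 2 and 3, bars are group means. RPL39L lies lower in all 6 Mix libraries while RPL39 does not, and RPL22L1 and RPL22 diverge in replicate 2 of both PHGDH siRNA groups.

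Other members were nearer the spread. With control siRNA, 0 members were called higher and 1 lower (1.18%), against 9.54% of all genes called, 5.62% higher and 3.92% lower. The median was -0.07 (56 of 85 below 0), against 0.00 for all genes. Members wholly lower numbered 12 (14.1%) and wholly higher 3 (3.53%), against 18.7% and 19.1% of all genes. Those lower included RPLP0, RPSA, RPL3L, RPL4, RPL5, RPL21, RPL39L, RPS3A, RPS4X, RPS15 and RPS26, and the 3 higher were RPL26L1, RPL36AL and RPS27L.

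RPSA, the small-subunit protein that also serves as a laminin receptor precursor, read 403, 472 and 444 FPKM in Control-siRNA and 325, 313 and 304 FPKM with Mix (-0.48, SE 0.158, limma adjusted p = 0.0873). In the PHGDH background it read 409, 325 and 363 FPKM, then 329, 224 and 286 FPKM (-0.40, SE 0.158, limma adjusted p = 0.167). Within same-numbered pairs its log2 differences were -0.31, -0.53 and -0.34, and it passed the test with a replicate block (SE 0.0978, limma adjusted p = 0.0184). RPSA was also called in both backgrounds when FPKM was rescaled to the same sum in every library (adjusted p = 0.00962 and 0.0224) and by voom on rebuilt reads (0.0112 and 0.0228).

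The ribosomal stalk, through which elongation factors dock, was described by RPLP0, RPLP1 and RPLP2. RPLP0 read 906, 1060 and 994 FPKM in Control-siRNA and 794, 737 and 746 FPKM with Mix, without overlap (-0.38, SE 0.145, limma adjusted p = 0.147). In the PHGDH background it read 928, 886 and 841 FPKM, then 861, 621 and 727 FPKM (-0.28, SE 0.145, limma adjusted p = 0.303), lower with Mix in every same-numbered pair but not past the test with a block (adjusted p = 0.115). Of 21 alternative fits in the PHGDH background, 1 called RPLP0 lower (limma adjusted p = 0.0394). Its partners RPLP1 and RPLP2 overlapped in both backgrounds, at -0.11 and -0.09 with control siRNA and -0.19 and -0.11 with PHGDH siRNA.

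RPL5 and RPL11, which with 5S rRNA can bind MDM2, gave a log2 fold change with Mix of -0.18 and 0.02 with control siRNA and of -0.17 and -0.03 with PHGDH siRNA, none past the test. RPL4, which lines the exit tunnel, read 432, 462 and 441 FPKM against 361, 354 and 344 FPKM with control siRNA (-0.33, SE 0.119, limma adjusted p = 0.118). With PHGDH siRNA it read 410, 433 and 411 FPKM against 395, 321 and 362 FPKM, again without overlap (-0.22, SE 0.119, limma adjusted p = 0.314). RPL36AL was the member farthest up with Mix (0.85, SE 0.343, limma adjusted p = 0.17), a value that includes the low Control-siRNA replicate 1.

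In the PHGDH background Mix called 0 members higher and 1 lower, against 8.86% of all genes called, 5.22% higher and 3.64% lower. The median was -0.13 (72 of 85 below 0), against 0.00, and 5 members lay wholly lower (5.88%, against 10.3% of all genes): RPL4, RPL21, RPL30, RPL36A and RPL39L. Some related lists leaned farther. The median was -0.18 for mitochondrial ribosomal protein genes (67 of 78 below 0), -0.24 for biogenesis factors (50 of 70) and -0.32 for snoRNA hosts (14 of 15). Elongation factors and other TOP mRNAs had -0.11, initiation factors -0.01 and TOR pathway genes 0.00.

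Taken as same-numbered pairs, the PHGDH siRNA libraries had most members lower with Mix. Of the 85 members, 53 (62.4%) were lower with Mix in all 3 pairs, against 30.5% of all genes, and 3 (3.53%) were higher in all 3, against 31.9%. The same count was not made for the related lists. Median log2 differences in pairs 1, 2 and 3 were -0.05, -0.22 and -0.10, against 0.00 over all genes in each. With the replicate number as a block in these 2 groups, a fit added after seeing the data, limma called 3 members lower (3.53%, against 10.4% of all genes lower) and 0 higher: RPL39L, RPSA and RPS26 (-0.40, SE 0.104, adjusted p = 0.0243). With only the 6 libraries of these groups and the block, 8 of 84 members were called lower, against 13.6% of all genes, and 1 higher. These were RPL8, RPL17, RPL39L, RPS2, RPS15, RPS26, RPSA and RPS19BP1, and RPL36AL was the one higher (0.40, SE 0.0609, limma adjusted p = 0.013). In neither blocked fit did the share of members called lower exceed that of all genes. Leaving out pair 1 or pair 3 from the first of these fits left 0 members called by limma (6 and 3 at an unadjusted p under 0.05), and leaving out pair 2 left RPL39L. Both Mix comparisons and both knockdown comparisons share groups of libraries, so their values are given side by side only.

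Leaving out libraries moved the count with control siRNA more than any other choice. Without replicate 2 of both PHGDH siRNA groups, where the SE of RPSA was 0.108 in place of 0.158, 6 members were called lower (7.06%, against 9.7% of all genes lower): RPL39L, RPL3L, RPL4, RPLP0, RPS26 and RPSA. Most members were low in Control-siRNA replicate 1, so leaving it out moves their change with Mix downward. With that library out as well, a choice made after seeing the data, the median was -0.26 with 79 of 85 below 0. In that fit 20 members were called lower (23.5%, against 13.7%), with log2 fold changes from -0.92 to -0.25. RPSA (-0.54, limma adjusted p = 0.00361), RPS2 (-0.57, 0.0049) and RPS26 (-0.48, 0.00461) were among them. In the PHGDH background the same choice called 3 lower (RPL17, RPL39L and RPSA, 3.53% against 10.1% of all genes) with a median of -0.08. The difference between the 2 backgrounds was 0.17 in median interaction, with 0 members called by limma.

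The interaction of siRNA and Mix itself called 0 members, with 0 at an unadjusted p under 0.05 by limma, and 0 of 14577 genes were called (250 at an unadjusted p under 0.05 in all). The median was -0.07 with 61 of 85 below 0. It turned to 0.12 with 79 above 0 without Control-siRNA replicate 1. RPL39L had an interaction of -0.15 (SE 0.258, limma adjusted p = 1).

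**Figure D5:**
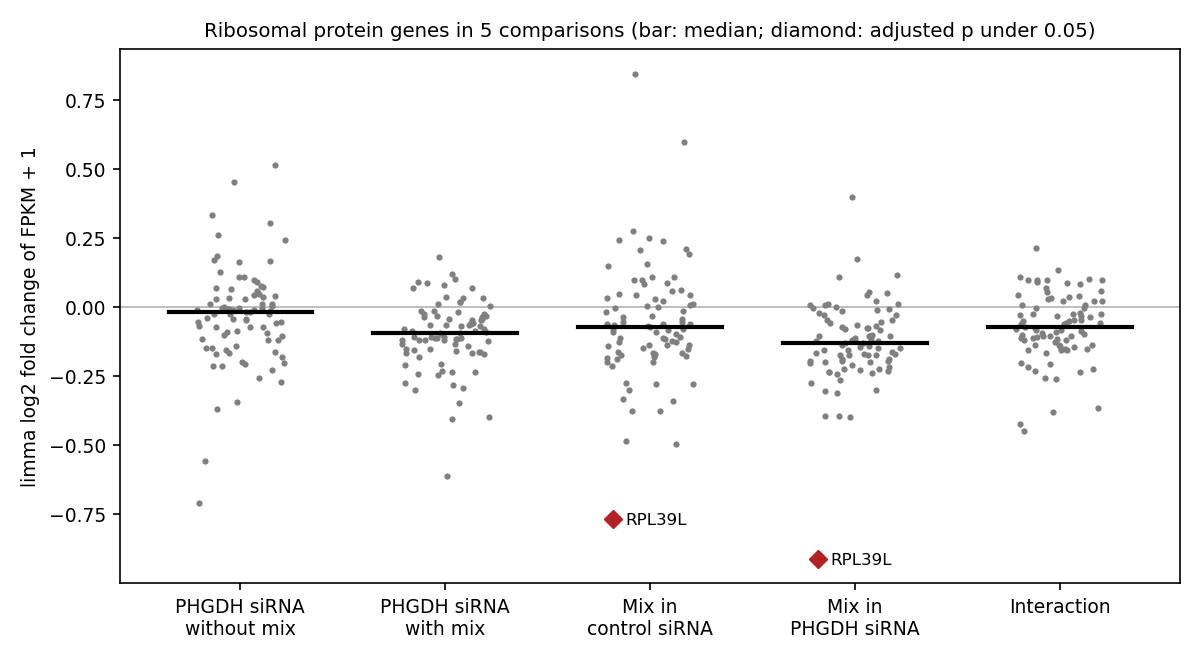
Points are limma log2 fold changes of the 85 tested members in 5 comparisons; bars are medians and red diamonds mark an adjusted p under 0.05. RPL39L is the sole diamond, at -0.77 and -0.91 in the 2 Mix comparisons.

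Genes of the wider translation programme were taken from lists of related genes. In the main fit Mix called 9.54% of all genes with control siRNA and 8.86% in the PHGDH background. No related list had a larger share called in either, so the genes named below do not set these lists apart. Of 70 tested biogenesis factors, 1 rose and 1 fell with Mix in control siRNA: SBDS, which releases EIF6 from new large subunits, rose from 25.4 ± 4.9 to 38.7 ± 1.09 FPKM (SD, n = 3; limma adjusted p = 0.0304). POLR1E, a subunit of RNA polymerase I, which makes the rRNA precursor, fell from 14 ± 1.3 to 9.37 ± 0.69 FPKM (limma adjusted p = 0.0178). In the PHGDH background 2 fell: POLR1E, from 15.5 ± 0.28 to 9.16 ± 1.4 FPKM (limma adjusted p = 0.00411), and WDR3, a small-subunit processome protein (-0.48, adjusted p = 0.0352). With the replicate block in the PHGDH siRNA groups, 21 biogenesis factors fell and 2 rose, or 32.9% of the list against 22.5% of all genes called in either direction. TCOF1, which supports rRNA gene transcription (-0.60, limma adjusted p = 0.0035), fell beside POLR1E (0.00112) and WDR3 (0.0025). EFL1, the GTPase that works with SBDS, rose (0.71, limma adjusted p = 0.00121).

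Of 35 initiation factors, EIF2S2 rose (0.45, limma adjusted p = 0.0456) and EIF4EBP2, a repressor of cap binding, fell (-0.40, adjusted p = 0.0463) with Mix in control siRNA, and 0 were called by limma in the PHGDH background, with 4 at an unadjusted p under 0.05. Of 25 TOR pathway genes, DEPTOR, an inhibitor of TOR, fell in control siRNA (-0.62, limma adjusted p = 0.033) and RRAGC, a Rag GTPase, rose in the PHGDH background (0.57, adjusted p = 0.0322). Of 17 elongation factors and other TOP mRNAs, 0 were called by limma in either background, with 1 at an unadjusted p under 0.05 in each. Of 15 snoRNA hosts, SNHG12 fell in the PHGDH background (-0.60, limma adjusted p = 0.0255). Of 78 mitochondrial ribosomal protein genes, MRPS27 fell in control siRNA, from 20.2 ± 0.249 to 14.4 ± 0.843 FPKM (SD, n = 3; limma adjusted p = 0.021). None of these lists had a larger share called in the main fit than all genes (9.54% with control siRNA and 8.86% with PHGDH siRNA). With the block, Mix in the PHGDH background called 3 initiation factors lower and 1 higher (11.4% of the list). It called 2 TOR pathway genes lower and 2 higher (16%), 1 elongation or other TOP mRNA higher (5.88%) and 4 snoRNA hosts lower (26.7%). It also called 5 mitochondrial ribosomal protein genes lower and 1 higher (7.69%). The same fit called 22.5% of all genes, and of the lists just given only the snoRNA hosts were above that share. No gene of the first 5 of these lists was called by limma in either knockdown comparison, where between 0 and 2 per list had an unadjusted p under 0.05.

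Among 113 tested pseudogenes named after members, 2 rose and 4 fell with Mix in control siRNA, and 3 rose in the PHGDH background. Both are smaller shares than those of all genes called (9.54% and 8.86%). With the block 5 rose and 4 fell there (7.96%, against 22.5% of all genes called). RPSAP52, named after RPSA, overlaps the start of HMGA2 on the opposite strand in GENCODE 29, and since no strand setting is given, reads of the pair cannot be told apart. It rose from 0.98 ± 0.518 to 8.57 ± 0.744 FPKM with control siRNA (SD, n = 3; limma adjusted p = 5.56e-05) and from 1.55 ± 0.297 to 10.8 ± 2.84 FPKM with PHGDH siRNA (adjusted p = 0.000121). RPL10P13 rose in both as well, from 0.543 ± 0.187 to 4.63 ± 0.498 FPKM and from 0.857 ± 0.156 to 3.22 ± 1.52 FPKM (limma adjusted p = 0.000378 and 0.011). RPSAP15, at a higher level, fell from 145 ± 7.02 to 88.1 ± 5.96 FPKM with control siRNA (limma adjusted p = 0.0493). The parents RPSA and RPL10 were not called in the same comparisons in the main fit, and RPSA was called in the alternatives given above.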

How the data were processed

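Total RNA from 12 samples of HaCaT cells was sequenced, per the labels. Tools listed without a role, per the submitters' processing notes, were featureCounts 1.5.0-p3, HISAT2 2.0.5 and CASAVA, and the build was hg38. The authors deposited 1 table of FPKM values per gene. Values were whole multiples of 1 read for 100% of those checked (within 0.05 of a whole number, up to 200 reads), and gene lengths equalled the GENCODE 29 exon union for all 91 members, so reads were rebuilt for 1 alternative. Members and lists were chosen with earlier results of these data known. Rows whose group mean reached 0.5 FPKM in any group (14577) were tested with limma 3.58.1 (R 4.3.3; trend and robust) on log2(FPKM + 1) over all 12 libraries, 1 mean per group with 8 residual degrees of freedom, two-sided, Benjamini-Hochberg threshold 0.05. Fold changes are on that log2(FPKM + 1) scale and understate low genes. The script was tested on simulated data. Exact permutation of 3 against 3 cannot go below 0.1. Named members were a set list of subunits, stalk genes and paralogs, the called members or the 3 with lowest p per comparison, the 5 highest and lowest by level and by the replicate 2 difference, and up to 4 called genes per related list; RPL26, RPL36, RPL4 and members named for groups that did not overlap or for calls in alternatives were added after their values were seen, and not every gene the rule names is reported here. Promoter sequences are RefSeq, GRCh38.p14; 72 of 91 members matched. Alternatives covered pseudocount, filter, scaling, voom, samples in the fit, replicate block, left-out libraries and canonical members. Figures used Python 3.11.15 and matplotlib 3.10.9. Depth was 16403845 to 20901128 rebuilt reads per library. Same-numbered libraries of PHGDH-siRNA and PHGDH-siRNA+Mix were taken as pairs because their deviations from the group means correlated over 0.1 in all 3 pairs (0.459 to 0.775); the labels name no shared source. In no other pair of groups did all 3 exceed 0.1.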

Additional observations from a re-analysis of the deposited data

How the results depend on the processing

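Shares in brackets are of all genes called in either direction in the same fit. The count of members called was 0 in both knockdown comparisons and in the interaction under every alternative run. With Mix and control siRNA the count of 1 (9.54%) became 0 without the filter (2.89%), 4 with FPKM rescaled to the same sum in every library (9.84%), 4 by voom on rebuilt reads (10.4%), 3 with only the groups compared (19.4%), 6 without replicate 2 of both PHGDH siRNA groups (20.8%) and 0 among canonical genes (9.54%); leaving out 1 replicate gave 0 to 1. With Mix and PHGDH siRNA the count of 1 (8.86%) became 2 with rescaled FPKM (9.54%), 3 by voom (10.4%), 0 with only the groups compared (1.81%) and 0 among canonical genes (8.86%); leaving out 1 replicate gave 0 to 1. Of the alternatives chosen after seeing the data, removing the GC trend gave 4 with control siRNA (12.9%), and leaving out Control-siRNA replicate 1 with both replicate 2 libraries gave 20 (27.1%) and 3 (21.6%). A replicate block within both PHGDH siRNA groups, where same-numbered libraries pair, gave 3 (22.5%) for Mix with PHGDH siRNA, 9 (29.2%) with only those groups, and 0 (12%), 1 (16.2%) and 0 (11%) without pair 1, 2 or 3. It left the interaction at 0. The interaction of RPL36AL (-0.45) ranged from -0.77 to 0.0562 on leaving out 1 replicate, reversing without Control-siRNA replicate 1, and was 0.0756 without all 3 libraries that stood apart. Leaving out 1 replicate moved the median of members from -0.22 to 0.12 for knockdown, from -0.23 to 0.07 for knockdown under Mix, from -0.26 to 0.05 for Mix with control siRNA, from -0.26 to 0.04 for Mix with PHGDH siRNA and from -0.21 to 0.12 for the interaction. The median differences of the 3 libraries that stood apart kept their sign under 5 alternatives each, from -0.45 to -0.26, -0.59 to -0.38 and -0.59 to -0.37. Rescaling to the same sum moved the median of all genes in Control-siRNA replicate 1 to 0.10, where members stood at -0.37, and voom moved it to -0.10 for Mix with PHGDH siRNA, where members stood at -0.22. A replicate block over all 4 groups left the counts at 0, 0, 1, 1 and 0 (RPL39L adjusted p = 0.0417 and 0.0227 by limma). Outside the PHGDH siRNA groups 2 same-numbered pairs correlated over 0.1 (0.27 and 0.291) and others as low as -0.387. The cause of these changes was not tested. With 3 libraries a group, differences within the spread of the libraries were not detectable.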
